A study of Homo sapiens with 12 samples.

Results

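A stretch of chromosome 1 that holds MIR197 and the mu-class glutathione transferase genes GSTM1 to GSTM5 was followed through 3 lung adenocarcinoma cell lines. Its members were the probes whose array coordinates (hg19) start on chromosome 1 from 105 to 117 Mb, without controls and without names that begin with XLOC_, SNOR or SCARNA. These were 186 of the 50599 probes on the array, and 114 genes of the region entered the comparisons among 24856 genes in all. The interval was chosen because GSTM1 to GSTM4, GNAI3 and AMPD2 had been seen lower in PC14CDDP than in PC14 on these same arrays, so the differences between lines are given here as a description and without a test. The question was whether the difference at the GSTM genes was local to them or shared by the genes around them, and then whether the miR-197 transfections changed any of these genes.

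The arrays measured RNA of A549, PC14 and PC14CDDP, a cisplatin-resistant line derived from PC14. Each line was transfected with 1 of 4 oligonucleotides at 25 nM, namely pre-miR-197, its negative control NC, the inhibitor LNA-miR-197, and its negative control LNA-NC. Every line and transfection had 1 array, so a line is represented by 4 arrays that differ in treatment and a transfection by 3 arrays that differ in line. A line is thus 1 culture stock, and the methods name a purchased source for PC14 and a different laboratory as the source of PC14CDDP, so resistance and stock cannot be told apart. All 4 A549 arrays lay on 1 slide and all PC14 and PC14CDDP arrays on another, so slide and line cannot be told apart for A549, while PC14 and PC14CDDP shared a slide. Probes well above background made up 55.8% to 63.0% of an array, with the lowest figure in PC14CDDP. Of 6 epithelial markers, KRT7, KRT8, KRT18 and KRT19 were well above background on all 12 arrays, whereas EPCAM and CDH1 were so on every A549 array and on 0 of 4 PC14CDDP arrays. Of the blood, endothelial and fibroblast markers, COL1A2 and DCN were well above background on 0 arrays, while PTPRC, CD14, CDH5, VWF and COL1A1 were on all 12. In A549, PC14 and PC14CDDP the log2 of the summed signal was 9.55, 7.56 and 7.71 for the epithelial markers, and 0.96, -0.37 and -2.18 for the blood markers. It was -2.52, -0.96 and -2.58 for the endothelial markers, and -0.92, -3.28 and -3.86 for the fibroblast markers. Such a sum is carried by the brightest markers. In the epithelial list these were KRT18 at 8.29, 7.42 and 7.60 and, in A549, KRT7 at 8.60, while KRT19 read 3.89, -0.56 and -2.69. The part of these markers in the differences below was not tested.

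Mu-class glutathione transferases join glutathione to electrophiles, among them drugs and products of oxidation, and thereby make them more soluble. Cisplatin is one of the compounds that glutathione can bind. The 5 GSTM genes sit next to each other in a tandem cluster that arose by gene duplication, and MIR197, which encodes the microRNA miR-197, lies close by, between the G-protein genes GNAI3 and GNAT2. A microRNA pairs with target messages mainly through its seed, bases 2 to 8. No probe for the microRNA itself was used here, so its level was not measured.

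The 2 arms of the MIR197 hairpin (RefSeq, GRCh38.p14, chr1:109598893-109598967, plus strand) are printed because the transfections add or block this microRNA. The names of the oligonucleotides do not say which arm is meant. Capitals mark the seed.
hsa-miR-197-3p: uUCACCACcuucuccacccagc
hsa-miR-197-5p: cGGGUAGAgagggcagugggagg

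The 250 bases before the RefSeq start of each GSTM gene are printed because GSTM1 to GSTM4 moved together between the lines and GSTM5 did not. All 5 genes matched the RefSeq table (GRCh38.p14). The windows are chr1:109655849-109656098 for GSTM4, chr1:109667807-109668056 for GSTM2, chr1:109687567-109687816 for GSTM1 and chr1:109712001-109712250 for GSTM5, all on the plus strand, and chr1:109741039-109741288 on the minus strand for GSTM3. Capitals mark TGACNNNGC, the core of the antioxidant response element, and GGGCGG, the GC box, each searched on both strands, where neighbouring GC boxes may overlap.
GSTM4: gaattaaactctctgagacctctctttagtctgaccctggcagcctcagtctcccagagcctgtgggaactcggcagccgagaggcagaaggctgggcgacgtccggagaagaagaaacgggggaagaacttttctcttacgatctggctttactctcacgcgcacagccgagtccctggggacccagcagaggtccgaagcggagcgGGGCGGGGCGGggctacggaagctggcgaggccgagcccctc
GSTM2: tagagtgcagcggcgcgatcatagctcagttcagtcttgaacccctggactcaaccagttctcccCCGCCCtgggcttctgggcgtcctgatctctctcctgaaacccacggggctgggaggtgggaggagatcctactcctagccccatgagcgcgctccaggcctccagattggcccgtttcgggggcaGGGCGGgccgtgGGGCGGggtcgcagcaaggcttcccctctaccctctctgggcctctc
GSTM1: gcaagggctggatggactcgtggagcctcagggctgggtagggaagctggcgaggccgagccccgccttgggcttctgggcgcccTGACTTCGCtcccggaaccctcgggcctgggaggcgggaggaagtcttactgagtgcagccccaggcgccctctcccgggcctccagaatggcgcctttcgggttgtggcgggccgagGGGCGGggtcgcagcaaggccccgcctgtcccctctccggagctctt
GSTM5: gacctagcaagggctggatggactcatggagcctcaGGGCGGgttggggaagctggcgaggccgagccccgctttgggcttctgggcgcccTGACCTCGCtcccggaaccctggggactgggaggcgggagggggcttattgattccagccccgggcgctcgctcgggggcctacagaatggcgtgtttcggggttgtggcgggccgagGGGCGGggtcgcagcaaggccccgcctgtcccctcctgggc
GSTM3: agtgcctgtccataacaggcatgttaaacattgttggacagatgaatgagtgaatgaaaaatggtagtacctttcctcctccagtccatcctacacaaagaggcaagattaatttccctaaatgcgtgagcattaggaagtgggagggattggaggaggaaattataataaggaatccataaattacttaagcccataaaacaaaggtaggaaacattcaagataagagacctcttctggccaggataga
TGACNNNGC occurred once in the GSTM1 window and once in the GSTM5 window, and in 10.9% of the 35116 windows of the table. GGGCGG occurred in every one of these windows except that of GSTM3, and in 42.6% of all windows. The GSTM1 and GSTM5 windows were the most alike, with 221 identical bases in 247 aligned columns (89.5%), and each held 19 CpG dinucleotides. The GSTM2 window was 71.0% identical to that of GSTM1, and the GSTM4 window 54.5%. The GSTM3 window, taken at the start that RefSeq lists, held 1 CpG against a median of 11 over all windows. A match is a description of letters in a window and was not tied to binding.

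The array read GSTM2 with 2 probes and each other GSTM gene with 1, all of 60 bases. The probes of GSTM1 (hg19, chr1:110231672-110231731), GSTM2 (chr1:110212103-110212162 and chr1:110213977-110214126) and GSTM4 (chr1:110201628-110201686) are printed because these genes are close copies and a probe could take up the RNA of a neighbour. Capitals mark the stretch in which the GSTM4 probe and the second GSTM2 probe aligned.
GSTM1 probe: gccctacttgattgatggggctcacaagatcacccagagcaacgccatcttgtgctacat
GSTM2 probe 1: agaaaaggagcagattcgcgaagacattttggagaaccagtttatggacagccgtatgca
GSTM2 probe 2: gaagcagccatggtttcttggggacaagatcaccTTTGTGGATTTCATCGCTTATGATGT
GSTM4 probe: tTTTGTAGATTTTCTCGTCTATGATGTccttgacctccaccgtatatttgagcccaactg
That stretch had 21 identical bases in 26 columns (80.8%). Every other pair of GSTM probes was at most 61.0% identical in its best local alignment. The probes were aligned with each other and not with the messages of the other GSTM genes. These identities therefore do not show how well a probe matches the RNA of a neighbour. Cross-hybridisation between GSTM messages was not tested, and the values below are those of the probes.

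GSTM1, GSTM2, GSTM3 and GSTM4 were highest in PC14, intermediate in PC14CDDP and lowest in A549, and for each of them the 4 arrays of a line did not overlap with those of either other line. Values are log2 signals after division by each array's own 75th percentile, so that a difference of 1 is 2-fold, and the arrays of a line are listed in the order NC, pre-miR-197, LNA-NC, LNA-miR-197. Levels are compared between lines for 1 probe and never between probes.

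GSTM1, which encodes a cytosolic conjugating enzyme, read 2.73, 2.66, 2.51 and 2.20 on the PC14 arrays, 0.42, 0.29, 0.32 and -0.12 on the PC14CDDP arrays, and -1.52, -1.53, -1.64 and -1.61 on the A549 arrays. The line means were 2.52 ± 0.24, 0.23 ± 0.24 and -1.58 ± 0.06 (SD, n = 4), which made PC14 4.92-fold higher than PC14CDDP and 17.2-fold higher than A549. All 4 PC14 arrays stood above all PC14CDDP arrays, and these above all A549 arrays.

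GSTM2, a close paralog of GSTM1, read 1.31, 1.14, 0.88 and 0.45 in PC14, -1.38, -1.87, -1.18 and -2.31 in PC14CDDP, and -3.42, -3.67, -3.34 and -3.72 in A549. The difference between PC14CDDP and PC14 was -2.63, and that between A549 and PC14 was -4.48. Its other probe gave -2.67 and -4.75, so both GSTM2 probes ordered the lines alike.

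GSTM4, at the lower end of the cluster, read 0.79, 0.61, 0.68 and 0.13 in PC14, -1.77, -2.06, -1.57 and -2.56 in PC14CDDP, and -2.96, -3.04, -2.99 and -3.05 in A549. The LNA-miR-197 array was the lowest of the 4 in each line for GSTM4 and for GSTM2. The difference from PC14 was -2.54 in PC14CDDP and -3.56 in A549.

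GSTM3, which lies at the other end on the opposite strand, read 7.0, 6.84, 6.83 and 6.67 in PC14, 4.96, 4.84, 4.74 and 4.59 in PC14CDDP, and 2.65, 2.56, 2.62 and 2.65 in A549. PC14 was 4.16-fold higher than PC14CDDP and 18.6-fold higher than A549. The spread within a line, at most 0.16 (SD, n = 4), was small beside these differences.

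GSTM5 did not follow the other 4 genes. It read -3.67, -3.68, -3.39 and -3.63 in PC14, -3.95, -4.08, -3.31 and -3.84 in PC14CDDP, and -3.29, -2.90, -2.96 and -3.32 in A549. The PC14CDDP arrays overlapped with those of PC14, with a difference of -0.21, and the A549 arrays were higher than PC14 by 0.47. GSTM5 thus ranked 86 of 114 in order of decrease from PC14 to PC14CDDP, where GSTM2, GSTM4, GSTM1 and GSTM3 ranked 4, 6, 8 and 11. GSTM1 and GSTM5, whose promoter windows were the most alike, therefore differed in how they ordered the lines.

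**Figure D1:**
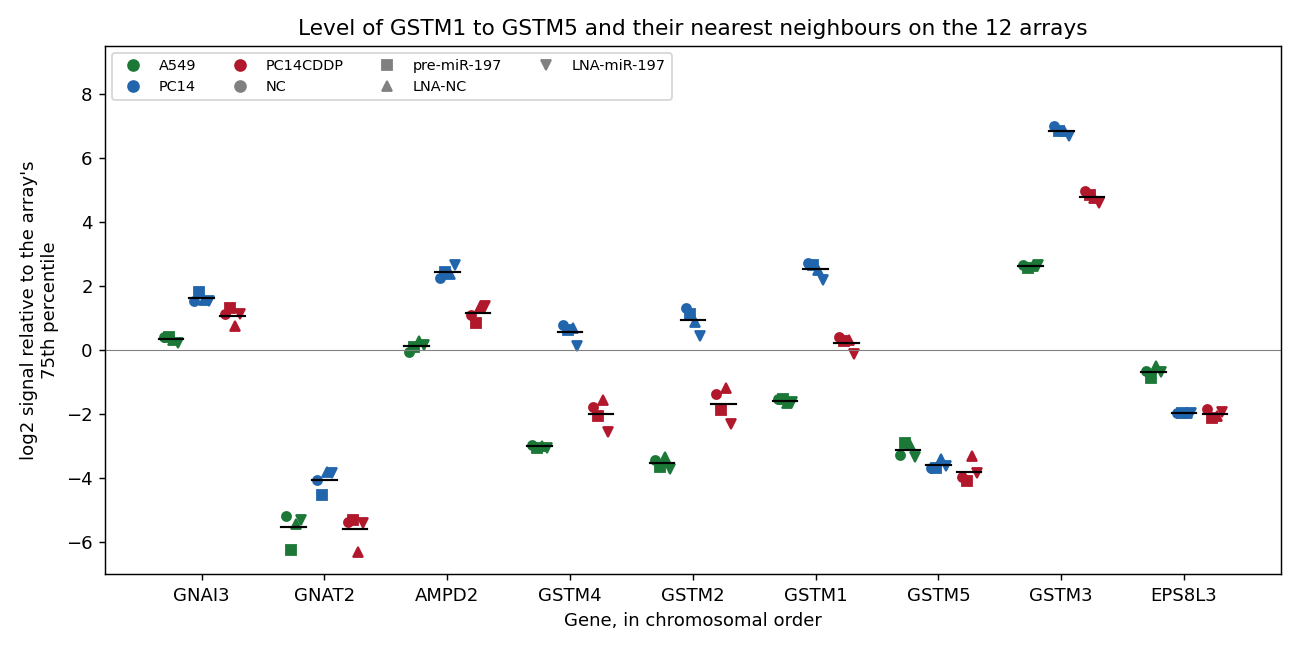
The plot gives the scaled log2 signal of each array (y axis, 0 is the array's 75th percentile) for GSTM1 to GSTM5 and 4 neighbouring genes in chromosomal order (x axis), with 1 symbol per array, a colour per cell line, a shape per transfection and a black bar at the mean of 4 arrays. GSTM1 to GSTM4 step down from PC14 to PC14CDDP to A549 without overlap, whereas GSTM5 lies between -4.08 and -2.90 in all 3 lines, and heights are not to be compared between genes.

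Of the genes nearest to the cluster, AMPD2 and GNAI3 showed the same order of lines with smaller steps. AMPD2, which deaminates AMP, read 2.26, 2.44, 2.39 and 2.66 in PC14, 1.11, 0.84, 1.33 and 1.39 in PC14CDDP, and -0.06, 0.10, 0.28 and 0.15 in A549, with no overlap between lines. GNAI3, an inhibitory G-protein alpha subunit, read 1.54, 1.83, 1.58 and 1.55 in PC14, 1.12, 1.31, 0.76 and 1.11 in PC14CDDP, and 0.41, 0.42, 0.33 and 0.22 in A549. The GNAI3 difference between PC14CDDP and PC14 was -0.55, smaller than that of any of GSTM1 to GSTM4, and it was -0.85 in the mean over the gene's probes.

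GNAT2, the cone transducin alpha subunit, was dim, reading -4.06, -4.53, -3.81 and -3.83 in PC14 and -5.36, -5.29, -6.30 and -5.39 in PC14CDDP, where it was well above background on 0 of 4 arrays. A bound was set by raising the dim line's signals to at least the lowest signal that is well above background on each array. It put PC14 2.82-fold above PC14CDDP, close to the 2.88-fold without it. The log2 difference was -0.35 with a model-based background correction, so 2.82 is not a minimum across background corrections. Bounds given below likewise hold for the signals as processed here. EPS8L3, an actin regulator related to EPS8 and the first gene past GSTM3, read -1.97, -1.97, -1.96 and -1.96 in PC14 and -1.83, -2.11, -2.06 and -1.95 in PC14CDDP, so it did not separate the pair. EPS8L3 was higher in A549, at -0.66, -0.87, -0.49 and -0.69. On that side the next gene past the cluster thus showed no decrease, and on the other side AMPD2 and GNAI3 differed less than GSTM1 to GSTM4.

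Across the whole interval, however, most genes were lower in PC14CDDP and in A549 than in PC14. The median difference between PC14CDDP and PC14 was -0.77 over the 114 region genes, from -6.60 to 6.38, against 0.03 over all 24856 genes. The median difference between A549 and PC14 was -1.59 over the region, from -10.09 to 6.51, against 0.08 over all genes. Without GSTM1 to GSTM5 the medians of the other 109 genes were -0.72 and -1.51. Both differences share the PC14 arrays, so they are not separate observations of the same shift.

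Of the 114 genes, 94 were below PC14 in PC14CDDP and 88 in A549, where 47.51% and 46.65% of all genes were. In PC14CDDP 41 were at least 2-fold lower and 3 at least 2-fold higher, where 10.8% and 6.96% of all genes were. In A549 70 were at least 2-fold lower and 11 at least 2-fold higher, where 16.1% and 16.9% of all genes were. Because the interval was chosen by this contrast, nothing is read from these shares.

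All 4 PC14CDDP arrays lay below all 4 PC14 arrays for 61 region genes, beside 17.6% of all genes, and all A549 arrays below all PC14 arrays for 76, beside 27.8%.

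The order PC14 over PC14CDDP over A549, which GSTM1 to GSTM4 showed, was the most common of the 6 orders of line means in the region. It held for 65 of 114 genes (57.0%) and for 16.1% of all genes. The next most common orders held for 15 and 14 region genes.

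Split by transfection, the same arrays gave region medians of the same sign. The region median of PC14CDDP minus PC14 was -0.71 with NC, -0.74 with pre-miR-197, -0.82 with LNA-NC and -0.75 with LNA-miR-197. For A549 minus PC14 it was -1.57, -1.52, -1.64 and -1.67 in the same order. Over all genes the medians were 0.05, 0.01, 0.01 and 0.04 for PC14CDDP and 0.08, 0.10, 0.06 and 0.03 for A549. Between 90 and 95 of the 114 genes were below PC14 in PC14CDDP, and between 83 and 90 in A549. By the line means, 47.51% and 46.65% of all genes were. The interval was chosen on these arrays, so the splits are not separate observations of the shift.

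The decrease did not fade with distance from GSTM1 inside the interval. For PC14CDDP minus PC14 the median was -0.80 over the 21 other genes whose probe starts within 0.5 Mb of the GSTM1 probe, -0.57 over 38 genes from 0.5 to 2 Mb, -0.87 over 24 genes from 2 to 4 Mb, and -0.69 over 26 genes farther than 4 Mb. The corresponding medians for A549 minus PC14 were -1.29, -1.46, -1.81 and -1.62. On the side of lower coordinates the PC14CDDP median was -0.67 over 32 genes, and on the side of higher coordinates it was -0.76 over 77 genes.

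GSTM1 to GSTM4 lay below this level. Their differences between PC14CDDP and PC14 ran from -2.63 to -2.06, which is 1.33 to 1.91 below the median of the other 109 genes, and between 3 and 7 of those 109 genes were as low as each of them. For A549 minus PC14 they ran from -4.48 to -3.56, which is 2.06 to 2.97 below the median of the others, and 3 or 4 of the others were as low. As a description, the GSTM difference was larger than that of most genes around it and was surrounded by a broad difference of the same sign. GSTM1 to GSTM4 were among the genes whose decrease in PC14CDDP led to the choice of the interval, so nothing is concluded from their rank.

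**Figure D2:**
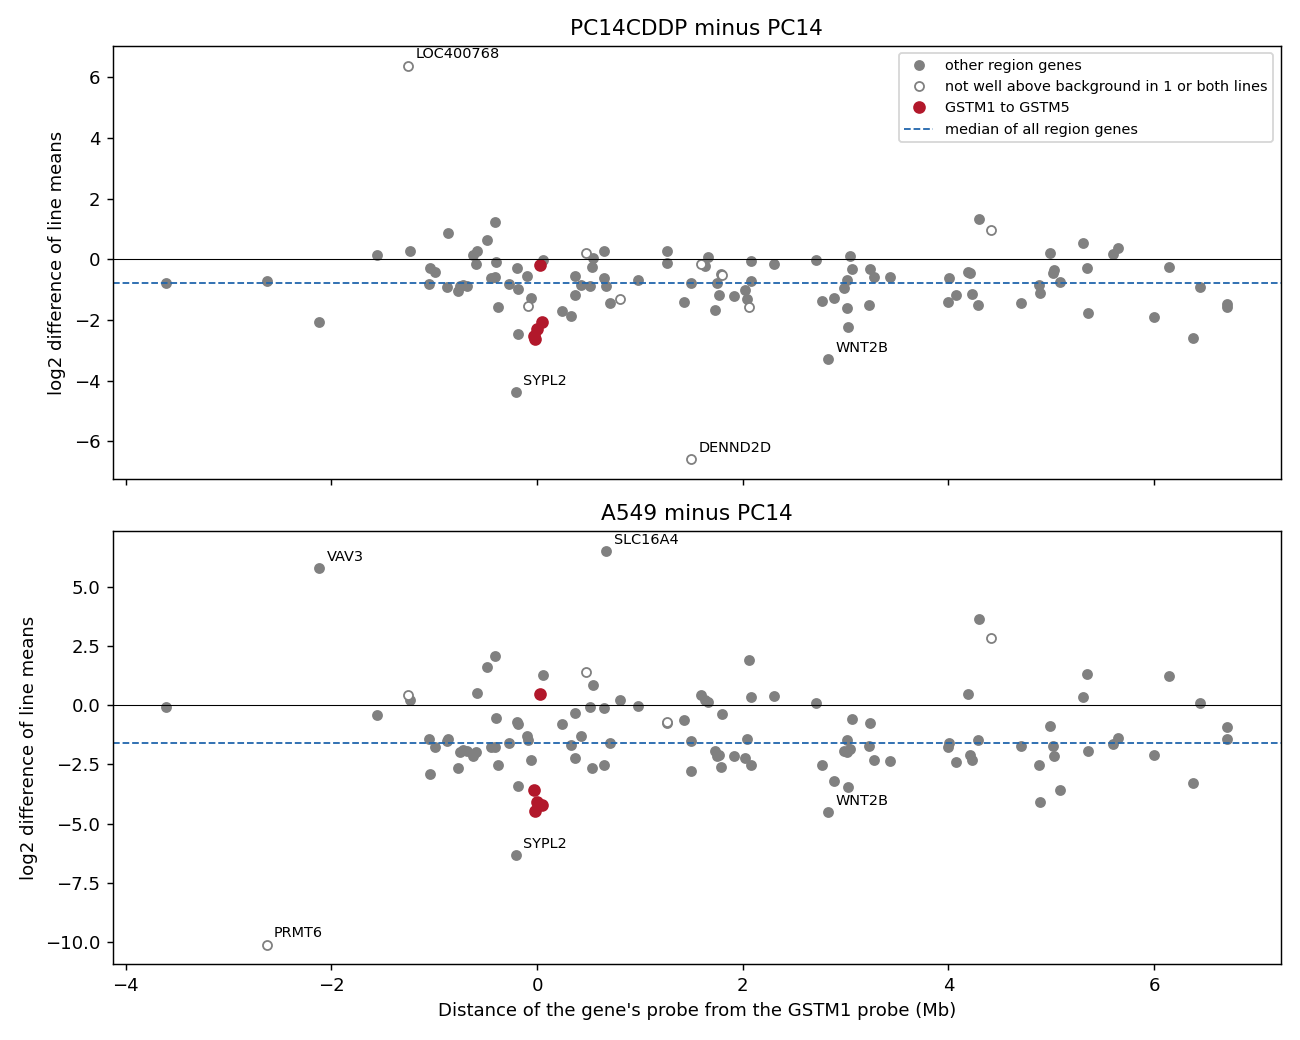
The 2 panels give the log2 difference of line means (y axis) against the distance of each gene's probe from the GSTM1 probe in Mb (x axis), with PC14CDDP minus PC14 above and A549 minus PC14 below; red points are GSTM1 to GSTM5, open points mark genes with no array well above background in 1 or both lines, and the dashed line is the region median. Most grey points lie below 0 at all distances, around medians of -0.77 and -1.59, and 4 of the 5 red points lie lower than that.

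The difference was steadier among the genes with strong signals. Of the 44 region genes whose mean over all 12 arrays was above the array's 75th percentile, 42 were below PC14 in PC14CDDP, with a median of -0.93 and a highest value of 0.15. All 44 were below PC14 in A549, with a median of -1.94 and a highest value of -0.40, and 40 of these were at least 2-fold lower. Over the 8948 genes of the array at that level the medians were 0.08 and -0.14. Of these, 43.06% were below PC14 in PC14CDDP and 57.3% in A549, and 1377 were at least 2-fold lower in A549. Of the 70 region genes at or below that level, 52 were below PC14 in PC14CDDP and 44 in A549, with medians of -0.54 and -0.72. Over the 15908 genes of the array at or below it, 50.01% and 40.67% were, with medians of -2e-04 and 0.23.

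PSMA5, a subunit of the proteasome core, showed the pattern with little spread, reading 6.78, 6.70, 6.77 and 6.82 in PC14, 6.0, 5.82, 5.95 and 6.08 in PC14CDDP, and 5.11, 5.33, 5.08 and 5.17 in A549. The 3 lines did not overlap. PC14 was 1.74-fold higher than PC14CDDP and 3.02-fold higher than A549.

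The role lists stand beside the whole region, where 82.46% of genes were below PC14 in PC14CDDP and 77.19% in A549. At least 2-fold lower were 36.0% and 61.4% of region genes, and 10.8% and 16.1% of all genes. No list was tested against the region. All 9 tested RNA and translation genes, among them RBM15, DDX20, WDR77, MOV10, PRPF38B, BCAS2, PRMT6 and HENMT1, were below PC14 in both other lines. Their median was -0.71 in PC14CDDP, beside -0.77 over the region, and 1 was at least 2-fold lower. In A549 it was -2.50, beside -1.59 over the region, and all 9 were at least 2-fold lower. MOV10, an RNA helicase, had the lowest PC14CDDP value of the list at -1.60, and DDX20, a helicase of the SMN complex, was at -2.53 in A549. Of 9 ubiquitin, kinase and signalling genes all were below PC14 in both lines, with medians of -0.85 and -1.76, among them the ubiquitin ligase TRIM33 at -1.43 and -1.73 and the kinase HIPK1 at -1.51 and -1.45. PTPN22, also on that list, did not pass the filter on dim probes.

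All 6 tested genes of the Ras family and of small GTPase regulation were below PC14 in PC14CDDP, 4 of them at least 2-fold. RAP1A, a Ras-related GTPase, was at -1.02 in PC14CDDP and -2.23 in A549, and RHOC, another small GTPase, at -0.69 and -1.45. NRAS, a Ras oncogene, was at -0.46 in PC14CDDP, where its arrays, from 1.28 to 2.42, overlapped with those of PC14, from 1.96 to 2.51. In A549 NRAS ran from 0.39 to 0.80 and did not overlap with PC14.

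Of 11 channel and transporter genes 10 were below PC14 in PC14CDDP, 4 of them at least 2-fold, and 9 in A549, 6 of them at least 2-fold. ATP5PB, a subunit of the mitochondrial ATP synthase, was at -1.17 and -2.09. SLC16A1, a monocarboxylate transporter, was at -1.52 and -1.71. KCND3, a potassium channel, and SLC16A4, a relative of SLC16A1, were above PC14 in A549. KCND3 differed by 0.33, whereas SLC16A4 read 2.40, 2.62, 2.61 and 2.37 in A549 against -4.10, -3.73, -4.11 and -4.08 in PC14.

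The other lists were smaller. Of 4 tested secreted ligands CSF1, the macrophage growth factor, was at -1.72 in PC14CDDP and -0.81 in A549, and WNT2B at -3.29 and -4.51, whereas TSHB was at -0.30 and 1.33. Of the lipid-associated genes at CELSR2, the sorting receptor SORT1 was at -1.59 and -2.52 and the seryl-tRNA synthetase SARS1 at -0.61 and -1.75. CELSR2 itself, a cadherin of planar polarity, went the other way, at 1.22 in PC14CDDP and 2.09 in A549. Of 4 genes around MIR197 and in purine metabolism 3 were below PC14 in PC14CDDP and all 4 in A549. All 4 tested immune and adhesion genes were below PC14 in PC14CDDP, with a median of -1.79, among them VANGL1, a planar polarity protein, at -1.90.

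A few genes differed far more than the region as a whole, and those given next were well above background on all 4 arrays of at least 1 of the lines compared. In PC14CDDP the largest decreases outside the GSTM genes were those of DENND2D, SYPL2, WNT2B, SLC22A15, AMIGO1 and PPM1J. DENND2D, a regulator of Rab GTPases, read -0.48, -0.63, -0.36 and -1.03 in PC14 and -7.95, -6.87, -6.19 and -7.86 in PC14CDDP. Because it was well above background on 0 of 4 PC14CDDP arrays, PC14 was at least 37.3-fold higher.

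SYPL2, a synaptophysin-like membrane protein, read 2.47, 2.0, 2.42 and 2.36 in PC14, -1.89, -2.49, -1.95 and -1.97 in PC14CDDP, and -4.35, -4.76, -3.68 and -3.20 in A549. It lies within 0.5 Mb of the GSTM1 probe and showed the GSTM order with larger steps, 20.9-fold and 79.4-fold below PC14. AMIGO1, an adhesion protein of neurons, also lies within 0.5 Mb of the GSTM1 probe and was at -2.47 and -3.39. Between SYPL2 and AMIGO1 lay ATXN7L2, at -0.29 and -0.72, and CYB561D1, at -0.99 and -0.79. SLC22A15 and PPM1J, an organic ion transporter and a protein phosphatase, were at -2.59 and -2.24 in PC14CDDP.

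The largest increase in PC14CDDP was that of the uncharacterised LOC400768, which read -1.39, -2.04, -1.11 and -1.0 there and was well above background on no array of the other 2 lines, so it was at least 29.2-fold higher than in PC14. After it among these genes came CELSR2, AKNAD1 at 0.86, ELAPOR1 at 0.63, SYCP1 at 0.55 and the transcript AK172772 at 0.38. LOC400768, AKNAD1, ELAPOR1 and CELSR2 lay on the side of lower coordinates, at -1256, -866, -486 and -414 kb from the GSTM1 probe, and SYCP1 and AK172772 on the other side at 5306 and 5647 kb.

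In A549 the largest decrease was that of PRMT6, an arginine methyltransferase of histones, which read -8.10, -8.09, -8.12 and -8.01 in A549 and 2.13, 1.73, 2.15 and 2.03 in PC14. It was well above background on 0 of 4 A549 arrays, so PC14 was at least 279-fold higher. Outside the GSTM genes, SYPL2, WNT2B, DENND2C at -4.07, SIKE1 at -3.56 and PPM1J at -3.45 followed. SIKE1 suppresses the kinase IKK-epsilon.

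The largest increases in A549 were SLC16A4 at 6.51, VAV3, an exchange factor for small GTPases, at 5.79, OLFML3 at 3.63, CELSR2 at 2.09, the antisense transcript INKA2-AS1 at 1.89 and ELAPOR1 at 1.61. VAV3 read 1.66, 1.61, 1.85 and 1.36 in A549 and -3.81, -4.29, -4.18 and -4.37 in PC14. OLFML3 and INKA2-AS1 were well above background on 2 of 4 PC14 arrays.

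Genes outside the interval were compared in the same way. The first tested feature inside the lower end was the transcript A_33_P3286162, with -0.80 in PC14CDDP and -0.09 in A549. Just outside the lower end, AMY1C and THAP3P1 were at 0.42 and 0.33 in PC14CDDP and at -1.84 and -1.09 in A549. Just outside the upper end, LOC100506459 was at -2.46 and -1.12 and CD58, an adhesion protein, at -1.86 and -1.41. Over the 71 genes from 93 to 105 Mb, a limit set after the values had been seen, the medians were -0.59 in PC14CDDP and -1.03 in A549, and over the 35 genes from 117 to 122 Mb they were -0.33 and -0.22. In PC14CDDP 23 of the 71 genes were at least 2-fold lower and 2 at least 2-fold higher, and of the 35 genes 10 were lower and 0 higher.

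Farther along chromosome 1 the 2 comparisons differed from each other. Over the 1087 genes below 93 Mb the median was -0.02 in PC14CDDP and -0.47 in A549. On the long arm, over 1089 genes above 142 Mb, it was 0.24 and 0.26. In bins of 10 Mb measured from the GSTM1 probe, the 2 bins that adjoin it had the lowest medians of the chromosome in both comparisons, -0.72 and -0.71 in PC14CDDP and -1.36 and -1.40 in A549. These 2 bins hold the whole interval, which was chosen by the PC14CDDP contrast, and both comparisons share the PC14 arrays. Nothing is concluded from the rank of these bins. The arrays measure RNA, and the DNA of the lines was not analysed here.

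**Figure D3:**
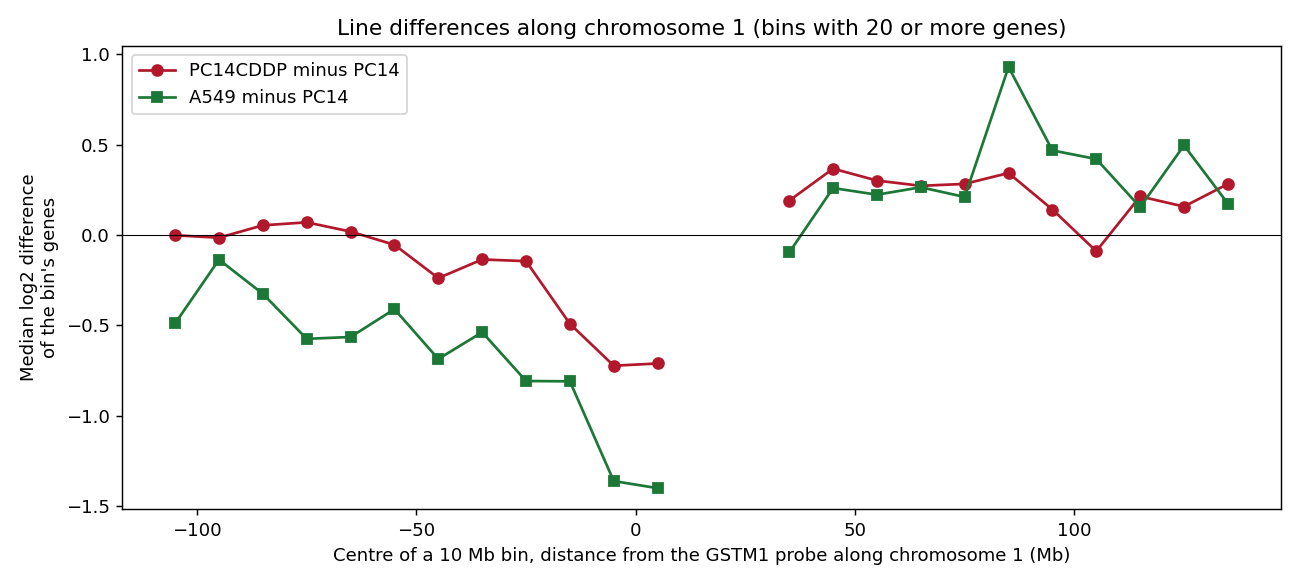
The plot gives the median log2 difference of the genes in each 10 Mb bin (y axis) against the distance of the bin's centre from the GSTM1 probe along chromosome 1 in Mb (x axis), for bins with 20 or more genes, with circles for PC14CDDP minus PC14 and squares for A549 minus PC14. Both series are lowest in the 2 bins at the GSTM1 probe and lie mostly above 0 to the right of the gap, on the long arm. Those 2 bins hold the interval that was chosen by the PC14CDDP contrast.

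The transfections, which had no part in the choice of the interval, changed few of its genes. Ratios were formed within each line and tested with limma over all genes with the line as a block. Between pre-miR-197 and NC 0 of the 114 genes passed in either direction at an adjusted p under 0.05, where 0.133% of all genes were lower and 0.0845% higher. The lowest adjusted p in the region was 0.0849, and 16 of the 114 genes had an unadjusted p under 0.05, where 4097 of all 24856 genes (16.5%) had. The methods' t-test, which does not pair arrays by line, called 0 of all 24856 genes after Benjamini-Hochberg adjustment, so its 0 in the region says nothing further. The region median was 0.05 against 0.03 over all genes.

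CYB561D1, a cytochrome b561 family protein, had the lowest adjusted p among genes with 1 direction in every line. Its log2 ratios in the order A549, PC14, PC14CDDP were -0.26, -0.66 and -0.73, with a mean of -0.55 ± 0.11 (limma SE, adjusted p = 0.0849). OVGP1, an oviductal glycoprotein, had ratios of 0.54, 0.97 and 2.49 (mean 1.33, limma adjusted p = 0.171) and KCNA3, a potassium channel, a mean of 0.66. Of the decreases that all lines shared, in genes well above background on at least 9 of 12 arrays, that of the transcript A_33_P3286162 had a mean of -1.15 and that of VAV3 a mean of -0.81, carried by -1.90 in PC14CDDP, where it was well above background on 1 of 4 arrays.

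GSTM1 to GSTM4 read lower with pre-miR-197 than with NC in every line, by little. GSTM1 had a mean log2 ratio of -0.07, GSTM2 of -0.30, GSTM3 of -0.12 and GSTM4 of -0.18 (limma adjusted p from 0.487 to 0.816). GSTM5 was at 0.09 (limma adjusted p = 0.830). The largest of these ratios in 1 line, -0.48 for GSTM2 in PC14CDDP, was small beside the -2.63 between the lines.

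Between LNA-miR-197 and LNA-NC 2 region genes were lower and 7 higher at a limma adjusted p under 0.05, which is 1.75% and 6.14% of the 114, where 3.90% and 3.75% of all genes were. In both directions together this was 7.89% of the region genes beside 7.66% of all genes. The region median was -0.01 against -0.02 over all genes. The 9 calls came from a fit that shares its error over all 12 arrays. The count was 0 in a fit of only the 6 LNA arrays, with any 1 line left out, and without the line as a block. By the methods' t-test after adjustment, and with the slide as the block in place of the line, it was 0 too. Over all 24856 genes the same settings called 0, from 0 to 2, 3, 0 and 4 in that order.

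The largest of the 7 increases in a gene detected on all arrays was that of TMEM167B, a small Golgi membrane protein. Its ratios were 0.84 for A549, 0.54 for PC14 and 1.12 for PC14CDDP, with a mean of 0.83 ± 0.14 (limma SE, adjusted p = 0.0220). The LNA-miR-197 array was the highest of the 4 in every line for this gene, at 0.56, 2.55 and 2.73. SIKE1 rose by 0.59 (adjusted p = 0.0249 by limma), LRIF1, a nuclear receptor cofactor, by 0.57, and PRPF38B, a splicing factor, by 0.70.

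SARS1 and RSBN1, a round spermatid protein, rose by 0.48 and 0.52 with limma adjusted p of 0.0405 and 0.0451. TRIM33 fell by 0.51, with ratios of -0.45, -0.48 and -0.60 that were nearly equal in the 3 lines (limma adjusted p = 0.0433). Each of these genes moved the same way in all 3 lines.

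C1orf162 fell by 2.08 (limma adjusted p = 0.0473), with ratios of -3.84, -1.08 and -1.32. Its LNA-NC arrays stood apart, reading -2.44, -1.18 and -1.16 in A549, PC14 and PC14CDDP, against -5.15, -2.95 and -4.01 with NC and -6.28, -2.26 and -2.48 with LNA-miR-197. LNA-NC was higher than NC by 2.45 for this gene (limma adjusted p = 0.0862). TMIGD3 was called higher by 1.86, but it was well above background on 3 of 12 arrays, and as a bound LNA-miR-197 was at least 1.39-fold higher than LNA-NC.

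**Figure D4:**
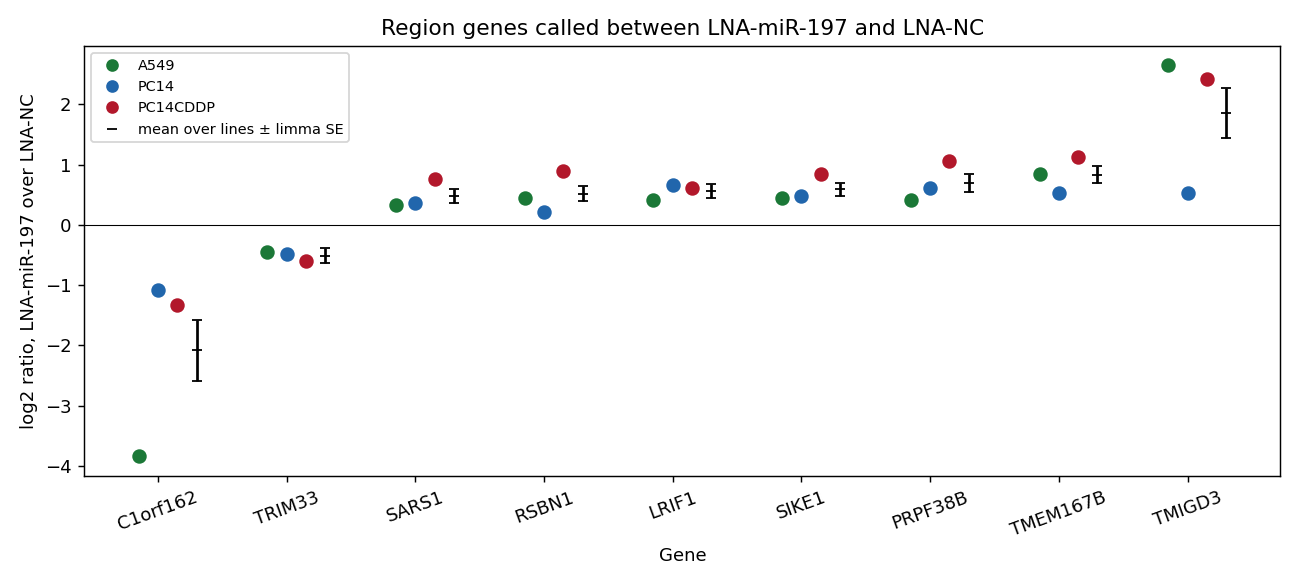
The plot gives the log2 ratio of LNA-miR-197 over LNA-NC (y axis) for the 9 called region genes (x axis), with a coloured point for each cell line and a black mark for the mean ± limma SE. TRIM33 has the closest points, from -0.60 to -0.45, and C1orf162 and TMIGD3 the widest spread.

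No GSTM gene passed between LNA-miR-197 and LNA-NC. GSTM2 had ratios of -0.38, -0.43 and -1.13 for A549, PC14 and PC14CDDP, with a mean of -0.65 ± 0.19 (limma SE, adjusted p = 0.0777). GSTM4 had -0.07, -0.56 and -0.98, with a mean of -0.54 ± 0.16 (limma SE, adjusted p = 0.0826). GSTM1 was at -0.24 (limma adjusted p = 0.218), GSTM3 at -0.10 and GSTM5 at -0.38. GSTM2 and GSTM4 passed, at limma adjusted p of 0.0372 and 0.0315, with a model-based background correction. Both also passed when the fit was limited to probes well above background on all 12 arrays. Those settings called 12.7% and 16.6% of all features. Neither gene passed in a fit of only the LNA arrays, or with any 1 line left out. Without the line as a block, with the slide as the block, and by the methods' t-test after adjustment, neither passed.

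The MIR197 neighbours did not separate by transfection. Against their controls, pre-miR-197 and LNA-miR-197 gave GNAI3 means of 0.16 and 0.07, AMPD2 means of 0.03 and 0.07, and GNAT2 means of -0.50 and 0.34, with limma adjusted p from 0.485 to 0.948. TAF13, a subunit of the transcription factor TFIID, LRIG2, a membrane protein, and RBM15, an RNA-binding protein, came next to the threshold after LNA-miR-197, at 0.91, 0.45 and 0.71 with limma adjusted p of 0.0595, 0.0609 and 0.0621.

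Between the 2 negative controls, LNA-NC and NC, 0 of the 114 genes were called, where 0.201% of all genes were lower and 0.515% higher. The lowest limma adjusted p was 0.0862, and 12 of the 114 genes had an unadjusted p under 0.05, where 3397 of all genes (13.7%) had. The methods' t-test called 0 region genes after adjustment and 0 of all genes. Among genes well above background on at least 9 of 12 arrays, the largest differences with the same sign in all lines were 2.45 for C1orf162 and 1.48 for OVGP1 upward, and -0.76 for the ciliary gene CFAP276 and -0.58 for LOC643355 downward. The slide column of a transfection did not vary between lines, which means that column and transfection cannot be told apart.

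All 186 probes are accounted for. They carried 131 names in the array file, and 157 of them were matched to a RefSeq gene. No probe lacked a value, 34 were well above background on fewer than 3 arrays, of which 24 on none, and 152 passed. The passing probes stood for 114 genes, 87 of them well above background on all 12 arrays and 2 in only 1 line, and 18 genes were not tested. Of 30 genes with several passing probes, 27 had the same sign in PC14CDDP minus PC14 for every probe, with SYT6, RBM15-AS1 and NHLH2 the exceptions, and 28 in A549 minus PC14. With genes absent from 1 line set to their bounds the region medians were -0.72 and -1.59.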

How the data were processed

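One-colour Agilent 8x60K arrays of 3 cell lines and 4 transfections (12 arrays) were read from the deposited scanner files. The values are processed signal intensities that the authors obtained with Agilent Feature Extraction 10.7.3.1, which subtracts background; no further normalization is stated. The deposited series table holds the same intensities. Unflagged spots of a probe were averaged, divided by the array's 75th percentile (613.5 to 714.6 units) and taken to log2, with no floor. Probes well above background on at least 3 of 12 arrays were kept (33712 of 50599). The probe with the highest mean stood for its gene. Names came from RefSeq by accession (55.7% of probes), otherwise from the array file. limma 3.58.1 in R 4.3.3 fitted line and transfection together on all 24856 genes, with Benjamini-Hochberg adjustment. On simulated data for pre-miR-197 against NC, 166 of 200 genes changed by 2 on the log2 scale were recovered among 24856.

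The members, gene lists and comparisons were chosen with earlier results of these data known. Genes named in the text were GSTM1 to GSTM5, GNAI3, GNAT2 and AMPD2, members of the role lists, the 6 largest decreases and increases per line comparison among genes well above background on all 4 arrays of either line, every gene called after a transfection, and genes from the 3 largest changes each way that all lines shared, among those well above background on at least 9 of 12 arrays. Genes within 0.5 Mb of the GSTM1 probe could be named too. Genes at the edges of the interval, genes with disagreeing probes, and LRIG2 were named after their values were seen. Arrays of a line deviated together from the transfection means (r from 0.848 to 0.949 over genes, against -0.754 to 0.116 between lines), which is why the line was the block. Arrays give no read depth, and their number limits the precision. The limma p-values rest on how far transfection effects differed between the 3 lines, pooled over all 12 arrays. Spread between repeated cultures of 1 line and transfection was not measured. Promoters were aligned with Biopython 1.88. Protein sequences were not used here. Some members that were analysed are not reported here by name.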

Additional observations from a re-analysis of the deposited data

Results flagged for a closer look

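In 3 of the 24 groups of 4 arrays checked for GSTM1 to GSTM5, GNAI3, GNAT2 and AMPD2, 1 array lay far from the other 3. Chance alone gives about 1 in 20 such groups. GSTM5 in PC14 read -3.39 with LNA-NC, against -3.68 to -3.63 on the other PC14 arrays. GNAI3 in PC14 read 1.83 with pre-miR-197, against 1.54 to 1.58. GNAT2 in PC14CDDP read -6.30 with LNA-NC, against -5.39 to -5.29, and it was not well above background on any of these arrays.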

How the results depend on the processing

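Region genes called between pre-miR-197 and NC numbered 0 in the reported fit and 1 with normexp background correction, with a filter on all 12 arrays, and with a trended robust prior, where 2.20%, 2.50% and 2.08% of all features were called. Between LNA-NC and NC they numbered 0, and 1 with normexp, with no filter and with the trended prior, where 0.785%, 0.254% and 1.16% of all features were called. Between LNA-miR-197 and LNA-NC the 9 calls became 16 with normexp, 2 with no filter on dim probes, 14 with a filter on all 12 arrays, 14 with every probe its own feature and 17 with the trended prior. The region features tested numbered 114, 132, 87, 152 and 114, and the calls over all features were 3164 of 24856, 517 of 36274, 3062 of 18483, 2680 of 33712 and 3233 of 24856. They became 0 with only the arrays of the comparison, with slide as a block, with the methods' t-test after adjustment, and with no replicate block, and they ranged from 0 to 0 when 1 line was left out. Over all 24856 genes these settings called 0, 4, 0 and 3 in that order, and from 0 to 2 when 1 line was left out. At an unadjusted threshold the methods' t-test passed 1, 2 and 4 region genes for pre-miR-197, LNA-miR-197 and LNA-NC against their controls, which is 0.877%, 1.75% and 3.51% beside 1.71%, 3.05% and 3.06% of all genes. The methods' t-test and the smaller fits have fewer residual degrees of freedom. The methods' t-test and the fit with no replicate block also do not pair arrays by line, so differences between lines enter their error. The part of each in these counts was not tested.

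The region median of PC14CDDP minus PC14 was -0.77 and moved to -0.54 with normexp, -0.63 with no filter and -0.81 with every probe its own feature, where 62 probes were at least 2-fold lower in place of 41 genes. That of A549 minus PC14 was -1.59 and moved to -1.37 with normexp, -1.42 with no filter, -1.76 with a filter on all 12 arrays and -1.69 with every probe, and ranged from -1.63 to -1.52 when 1 transfection was left out. Both medians kept their sign in every setting run. GSTM1 to GSTM4 stayed between -2.82 and -2.04 for PC14CDDP and between -4.64 and -2.76 for A549. Some small transfection ratios turned sign. For LNA-NC against NC GSTM4 was -0.0076 with quantile normalization, and leaving out 1 line gave from -0.068 to 0.088 for GSTM4 and from -0.17 to 0.14 for GSTM2. Leaving out 1 line gave from -0.066 to 0.19 for GSTM5 after pre-miR-197. The cause was not tested. With 1 array per line and transfection, small ratios were not resolvable.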

Other observations

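The 54 probes of the interval that were left out by name, 53 of them for long intergenic transcripts named XLOC_, were read apart from the members. Of these, 20 were well above background on at least 3 arrays. Their median difference was -0.93 for PC14CDDP minus PC14, with 10 at least 2-fold lower and 0 at least 2-fold higher, and -1.25 for A549 minus PC14, with 11 lower and 1 higher. These values come from the same arrays and the same contrast as those of the members.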
